A study of Mus musculus with 22 samples.

Results

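The genes described here encode 7 transporters of the blood-brain barrier: Slco1a4, Abcb1a, Abcg2, Slc2a1, Slc7a5, Slc16a1 and Mfsd2a. They were chosen by symbol in the array's annotation, and each was read by 1 probe set that lists no other gene, which gives 7 of the 19935 genes tested. RNA came from the hypothalamus of male C57bl6 mice aged 9 to 12 weeks, either deficient in the cytokine interleukin-6 (IL-6 KO) or wild-type (WT) littermates. Each mouse had 1 intraperitoneal injection of lipopolysaccharide (LPS) from Escherichia coli, a bacterial surface molecule that triggers inflammation and fever, in a dose of 120 µg/kg, or saline alone, with death after 3 h and perfusion with saline. There were 7 arrays of IL-6 KO mice after LPS, 4 of IL-6 KO mice after saline, 7 of WT mice after LPS and 4 of WT mice after saline. The design text asks which transcripts of LPS-treated animals set IL-6 KO mice apart, in view of their missing fever.

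The labels do not say how the Il6 gene was altered, and they do not say that arrays and mice match 1 to 1. The p-values therefore refer to the spread between arrays, which may be partly technical. The Il6 probe set did not separate the genotypes after LPS, with 0.24 ± 0.20 in IL-6 KO arrays and 0.07 ± 0.14 in WT arrays (SD, n = 7 each). It was higher after LPS than after saline by 0.36 in IL-6 KO mice (adjusted p = 0.0193, limma) and by 0.21 in WT mice (adjusted p = 0.457). A probe set that may lie outside the altered part checks nothing. All values are on a log2 scale, as differences from the gene's own median over the 22 arrays. They hold no levels, so the presence of a cell type's markers could not be checked and no gene's abundance was set against another's. Titles number the arrays from 1 to 22 without saying what the numbers mark. Arrays 1 to 11 hold 2 IL-6 KO LPS, 1 IL-6 KO saline, 5 WT LPS and 3 WT saline samples, and arrays 12 to 22 hold 5 IL-6 KO LPS, 3 IL-6 KO saline, 2 WT LPS and 1 WT saline sample. Of genes of neighbouring tissues, Ttr or Gh lay over 2 on 6 arrays, and Ttr lay at 1.98 on IL-6 KO LPS replicate 4. Ttr of the choroid plexus lay at 2.43 to 4.62 on 3 WT arrays, and the pituitary hormone gene Gh at 2.20 to 3.96 on 3 IL-6 KO arrays; these markers were chosen after their values were seen.

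Brain endothelial cells are sealed to each other by tight junctions, so that most polar molecules enter or leave the brain through carriers in their membranes. Efflux pumps of the ABC family use ATP to return drugs and lipophilic compounds to the blood, solute carriers bring in glucose, amino acids and lactate, and organic anion transporters move steroid conjugates and thyroid hormones. In the hypothalamus this barrier borders the median eminence, whose capillaries are fenestrated and leaky. Several of these genes are also used by other cells: Slc2a1 and Slc16a1 by astrocytes and other glia, and Slc7a5 by many dividing or activated cells.

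Promoters are shown for Slco1a4, Abcb1a and Mfsd2a, the genes called after LPS in both genotypes. Each runs from 250 bases before to 50 bases after the transcription start in RefSeq's annotation of mouse build GRCm38.p6, read 5′ to 3′ on the gene's strand. Windows were found for 6 of the 7 genes; Slc7a5 was not matched. Capitals mark, on either strand, the letters of the motifs that were searched and found.
Slco1a4, chr6:141856171-141856470, minus strand: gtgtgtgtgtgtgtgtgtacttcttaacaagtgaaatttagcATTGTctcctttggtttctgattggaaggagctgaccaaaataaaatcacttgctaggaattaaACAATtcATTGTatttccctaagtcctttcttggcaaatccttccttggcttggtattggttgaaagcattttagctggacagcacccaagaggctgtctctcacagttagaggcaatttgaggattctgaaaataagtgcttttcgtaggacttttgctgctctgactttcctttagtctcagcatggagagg
Abcb1a, chr5:8566841-8567140, plus strand: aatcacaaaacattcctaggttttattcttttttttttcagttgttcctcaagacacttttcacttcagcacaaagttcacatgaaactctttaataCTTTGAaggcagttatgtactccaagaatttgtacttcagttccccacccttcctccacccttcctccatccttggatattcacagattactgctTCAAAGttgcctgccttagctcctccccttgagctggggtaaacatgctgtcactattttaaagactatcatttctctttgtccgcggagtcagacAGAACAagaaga
Mfsd2a, chr4:122961139-122961438, minus strand: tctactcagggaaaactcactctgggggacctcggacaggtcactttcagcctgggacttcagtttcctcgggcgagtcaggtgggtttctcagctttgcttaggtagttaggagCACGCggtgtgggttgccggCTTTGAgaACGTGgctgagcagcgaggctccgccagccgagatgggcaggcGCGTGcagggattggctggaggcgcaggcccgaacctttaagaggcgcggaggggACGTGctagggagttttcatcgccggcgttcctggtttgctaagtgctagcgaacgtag
The Slco1a4 window holds ACAAT, the core that SOX proteins recognise, 3 times. Of all 32851 windows of this length, 31.0% hold it. The Abcb1a window holds CTTTGA, the letters of TCF/LEF factors of the Wnt pathway, 2 times and the glucocorticoid receptor letters AGAACA 1 time; the shares over all windows were 16% and 19%. The Mfsd2a window holds CTTTGA 1 time, GCGTG, the aryl hydrocarbon receptor core, 2 times (32.4% of all windows) and ACGTG, the hypoxia response core, 2 times (19.6%). No match overlapped another in these 3 windows. Also searched were CCGGAA for ETS factors (14.9% of all windows), TGACG for cAMP response (20.8%), GGGNNTTCC for NF-kB (5.82%), TTCNNNGAA for STAT (8.3%) and GGGCGG for the GC box (35.7%), none of which is in the 3 windows. The Slco1a4 and Abcb1a windows were 40.7% and 40.3% G and C, and that of Mfsd2a 60.3%. The letters in a window show no binding.

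After LPS, the organic anion transporter and the main drug efflux pump were lower and the lipid carrier was higher in both genotypes. In IL-6 KO mice, Slco1a4 and Abcb1a fell and Mfsd2a rose. In WT mice, Slco1a4, Abcb1a, Slc7a5 and Slc16a1 fell and Mfsd2a rose. Slc2a1 and Abcg2 passed the test in neither genotype. A gene was called at a Benjamini-Hochberg adjusted p under 0.05 over all genes in limma. The 3 calls in IL-6 KO mice, 1 higher and 2 lower, stand beside 1.34% of all genes called there, 1.08% higher and 0.256% lower. The 5 calls in WT mice, 1 higher and 4 lower, stand beside 1.8% of all genes, 1.42% higher and 0.376% lower. The 7 genes were chosen with earlier results of these data known, so these shares serve as a description only. The median difference of the 7 genes was -0.25 in IL-6 KO mice, against -0.009 over all genes, and -0.33 in WT mice, against -0.011 over all genes.

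**Figure D1:**
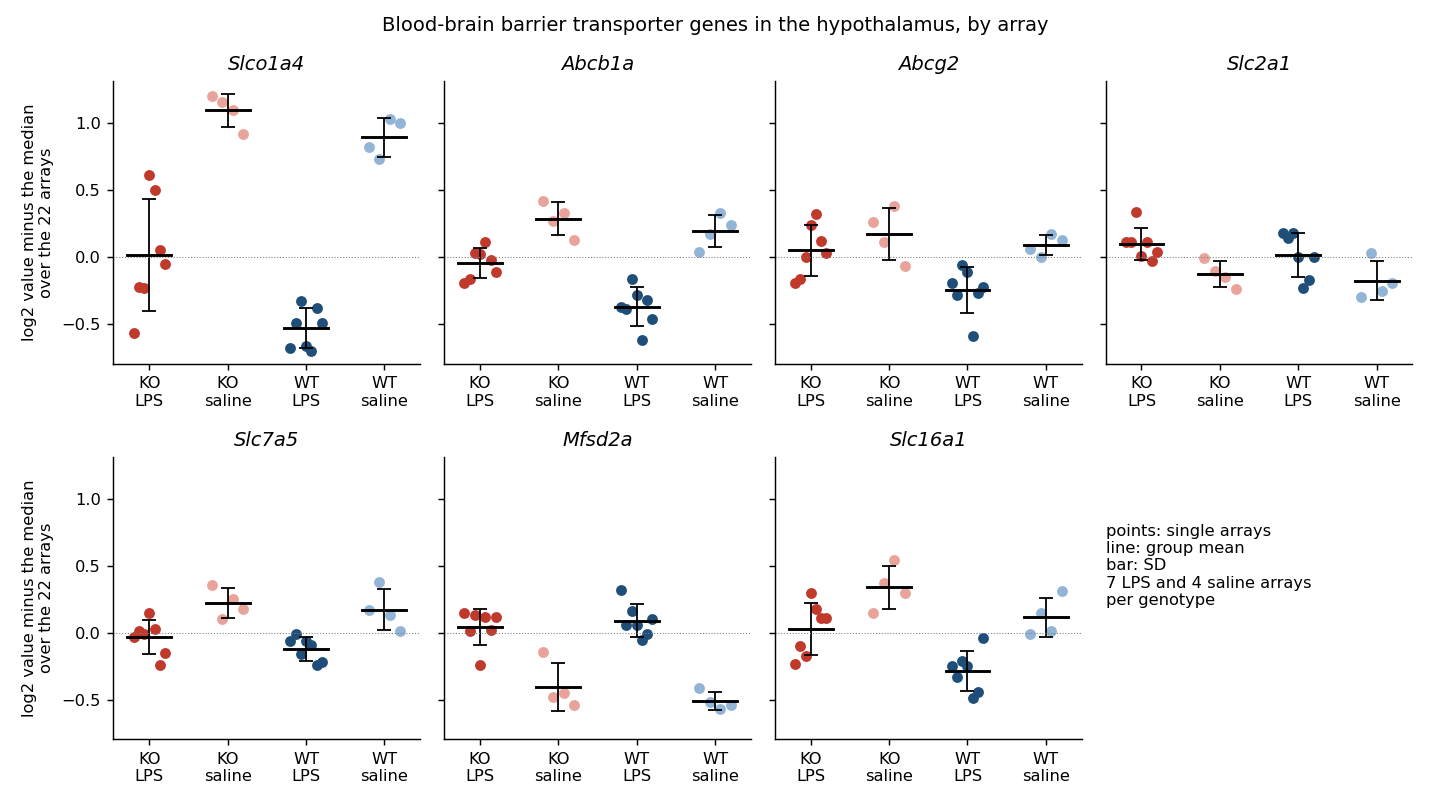
Log2 value of each transporter gene on every array, as the difference from its median over the 22 arrays, for IL-6 KO after LPS, IL-6 KO after saline, WT after LPS and WT after saline; points are arrays, lines group means and bars SDs. Slco1a4 has the widest separation: its LPS arrays reach at most 0.61, and its saline arrays start at 0.73.

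Slco1a4 encodes Oatp1a4, which carries bile acids, steroid conjugates and other organic anions across the endothelium. In IL-6 KO mice, its values after LPS ran from -0.57 to 0.61 with a median of -0.05, against 1.20, 1.16, 1.10 and 0.92 after saline. In WT mice, they ran from -0.70 to -0.33 with a median of -0.49 after LPS, against 0.82, 0.73, 1.03 and 1.0 after saline. LPS and saline arrays did not overlap in either genotype. The fall was 1.08 on the log2 scale in IL-6 KO mice (SE 0.15, 2.12-fold lower, adjusted p = 6.53e-05, limma) and 1.43 in WT mice (SE 0.15, 2.69-fold lower, adjusted p = 7.01e-07, limma). In each genotype this was the lowest difference of all 19935 genes. The IL-6 KO arrays after LPS were more widely spread than the WT ones, with an SD of 0.42 in IL-6 KO mice and 0.15 in WT mice (n = 7 each). The 2 highest IL-6 KO values, 0.61 and 0.50, came from replicates 4 and 5, and the lowest from replicate 1.

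Abcb1a encodes P-glycoprotein, the efflux pump that keeps many drugs out of the mouse brain. After LPS its values ran from -0.19 to 0.11 with a median of -0.02 in IL-6 KO mice, against 0.42, 0.27, 0.33 and 0.13 after saline. In WT mice they ran from -0.62 to -0.16 with a median of -0.37 after LPS, against 0.04, 0.17, 0.33 and 0.24 after saline. Again no LPS array reached a saline array of its genotype. Abcb1a fell by 0.33 in IL-6 KO mice (SE 0.07, 1.26-fold lower, adjusted p = 0.0168, limma), and without IL-6 KO saline replicate 1 or 3 the difference was -0.29 or -0.32 and not called (adjusted p = 0.116 or 0.0821). The fall in WT mice was 0.57 (SE 0.07, 1.48-fold lower, adjusted p = 2.19e-05, limma). Counted from the lowest difference, Abcb1a stood at place 33 of 19935 in IL-6 KO mice and at place 9 in WT mice.

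Abcg2 encodes the breast cancer resistance protein, the other main efflux pump of the barrier. Its values in IL-6 KO mice were -0.19 to 0.32 with a median of 0.03 after LPS, against 0.26, 0.11, 0.38 and -0.07 after saline. In WT mice they were -0.59 to -0.06 with a median of -0.22 after LPS, against 0.06, -0.00, 0.17 and 0.13 after saline. The treatments overlapped in IL-6 KO mice and did not in WT mice. The difference was -0.12 in IL-6 KO mice (SE 0.10, 95% interval -0.32 to 0.08, adjusted p = 0.9998, limma) and -0.33 in WT mice (SE 0.10, 95% interval -0.54 to -0.13, adjusted p = 0.115, limma). The exact permutation test over the arrays, two-sided and unadjusted, gave p = 0.00606 for WT, the smallest that 7 against 4 arrays allow, and p = 0.339 for IL-6 KO.

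Slc2a1 encodes GLUT1, the glucose carrier of the barrier, and was not called. Its values after LPS ran from -0.03 to 0.34 with a median of 0.11 in IL-6 KO mice, against -0.01, -0.10, -0.15 and -0.24 after saline. In WT mice they ran from -0.23 to 0.18 with a median of 0.00 after LPS, against -0.30, 0.03, -0.25 and -0.19 after saline. The groups overlapped in both genotypes, although all 7 LPS arrays of IL-6 KO mice and 6 of 7 of WT mice lay above their saline mean. The difference was 0.22 in IL-6 KO mice (95% interval 0.06 to 0.39, adjusted p = 0.415, limma) and 0.19 in WT mice (95% interval 0.02 to 0.36, adjusted p = 0.59, limma).

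Slc7a5 encodes LAT1, the light chain that exchanges large neutral amino acids, L-DOPA and thyroid hormones. In IL-6 KO mice its values were -0.24 to 0.15 with a median of -0.01 after LPS, against 0.36, 0.10, 0.25 and 0.18 after saline. WT values were -0.24 to -0.01 with a median of -0.09 after LPS, against 0.17, 0.38, 0.13 and 0.01 after saline. Only the WT groups were apart. The difference was -0.25 in IL-6 KO mice (SE 0.07, adjusted p = 0.0921, limma), and it was called without LPS replicate 4 (-0.28, adjusted p = 0.0345) and with the blocks of array number as a term in the fit (-0.26, adjusted p = 0.0234). Slc7a5 fell by 0.29 in WT mice (SE 0.07, 1.22-fold lower, adjusted p = 0.0245, limma). That call did not hold when WT saline replicate 1 or 2, or WT LPS replicate 3, 6 or 7, was left out (adjusted p = 0.0534 to 0.21); with any 1 array left out the difference was -0.35 to -0.22.

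Slc16a1 encodes MCT1, which carries lactate and ketone bodies with a proton. In IL-6 KO mice its values were -0.23 to 0.30 with a median of 0.11 after LPS, against 0.15, 0.37, 0.54 and 0.30 after saline. WT values were -0.49 to -0.04 with a median of -0.25 after LPS, against -0.01, 0.15, 0.01 and 0.31 after saline. The IL-6 KO groups overlapped and the WT groups did not. The difference in IL-6 KO mice was -0.31 (SE 0.10, adjusted p = 0.204, limma), and in WT mice Slc16a1 fell by 0.40 (SE 0.10, 1.32-fold lower, adjusted p = 0.0273, limma). The WT call was lost without WT LPS replicate 2, 5 or 6 or WT saline replicate 2 or 4 (adjusted p = 0.0543 to 0.183); with any 1 array left out the difference was -0.44 to -0.34.

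Mfsd2a encodes the sodium-dependent carrier that brings the omega-3 fatty acid DHA into the brain as lysophosphatidylcholine, and in mice it is required to keep transcytosis low in brain endothelium. It was the only one of the 7 genes to rise past the test. In IL-6 KO mice its values ran from -0.24 to 0.15 with a median of 0.12 after LPS, against -0.14, -0.48, -0.45 and -0.54 after saline. WT values ran from -0.05 to 0.32 with a median of 0.06 after LPS, against -0.41, -0.52, -0.57 and -0.54 after saline. The WT groups were apart, and in IL-6 KO mice LPS replicate 4 lay below saline replicate 1. Mfsd2a rose by 0.45 in IL-6 KO mice (SE 0.08, 1.36-fold higher, adjusted p = 0.001, limma) and by 0.60 in WT mice (SE 0.08, 1.51-fold higher, adjusted p = 1.64e-05, limma). Without the 6 arrays with high Ttr or Gh the rise in IL-6 KO mice was 0.39 and not called (adjusted p = 0.0693, limma).

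By overlap of the arrays, 2 of the 7 genes were apart between LPS and saline in IL-6 KO mice, beside 1.66% of all genes, and 6 in WT mice, beside 2.34%. Whether the LPS effect differed between the genotypes was tested directly, as the effect in IL-6 KO mice minus that in WT mice. No gene was called, 0.0% of 19935, and 327 genes (1.64%) had an unadjusted p under 0.05, among them Abcb1a. The Abcb1a difference was 0.23 (SE 0.11, 95% interval 0.01 to 0.45, adjusted p = 0.999994, limma). An exact permutation of genotype labels within each treatment, two-sided and unadjusted, gave p = 0.103. Its null is no genotype difference in either treatment, so it does not test equal LPS effects alone. For Slco1a4 the difference of LPS effects was 0.35 (SE 0.21, 95% interval -0.09 to 0.79, same adjusted p in limma). Within arrays 1 to 11 both turned sign, to -0.05 for Abcb1a and -0.16 for Slco1a4. The other 5 genes lay between -0.15 for Mfsd2a and 0.21 for Abcg2, each with an interval that includes 0.

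**Figure D2:**
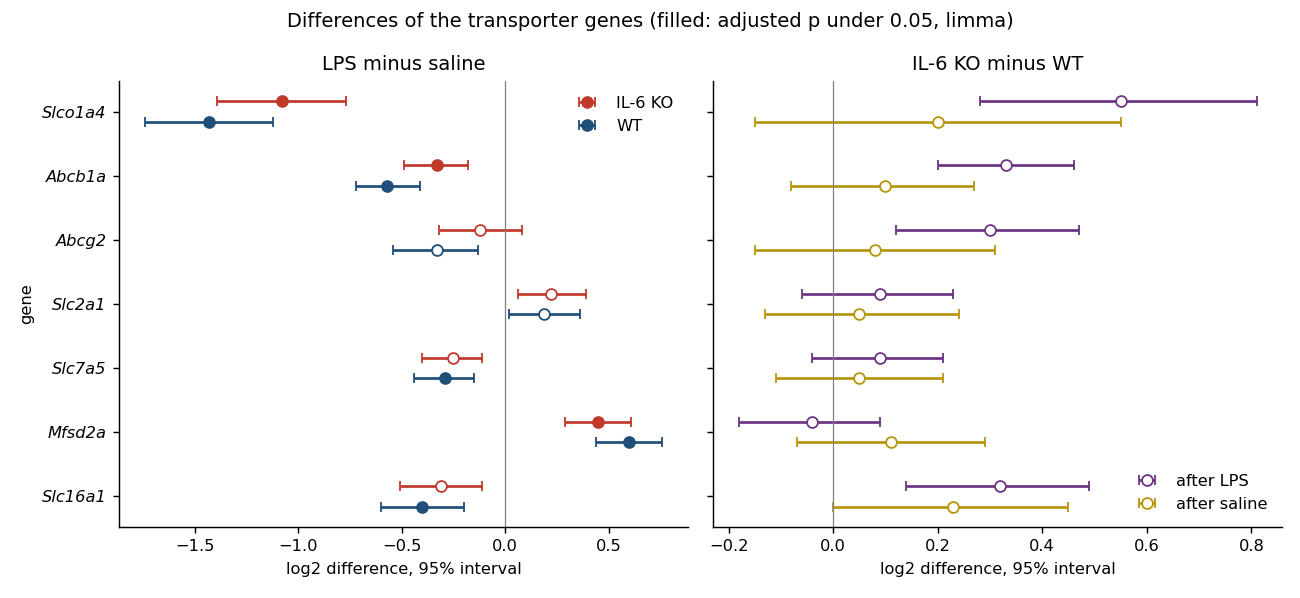
Log2 differences of the 7 genes with 95% intervals from limma: LPS minus saline in IL-6 KO and WT mice (left) and IL-6 KO minus WT after LPS and after saline (right); filled points have an adjusted p under 0.05. Filled points occur only for LPS against saline, 3 in IL-6 KO and 5 in WT mice.

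Between the genotypes after LPS, Slco1a4, Abcb1a, Slc16a1 and Abcg2 had higher means in IL-6 KO mice, but none was called. Of all genes, 8 (0.0401%) were called. At an unadjusted p under 0.05 in limma were 4 of the 7 genes, beside 11.4% of all genes. The means of Slco1a4 were 0.01 ± 0.42 in IL-6 KO mice and -0.53 ± 0.15 in WT mice (SD, n = 7 each), a difference of 0.55 (95% interval 0.28 to 0.81, adjusted p = 0.166, limma). For Abcb1a they were -0.04 ± 0.11 in IL-6 KO mice and -0.37 ± 0.14 in WT mice, a difference of 0.33 (95% interval 0.20 to 0.46, adjusted p = 0.0594, limma). The values of each of the 7 genes overlapped between the genotypes after LPS; those of 0.13% of all genes did not.

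The Slc16a1 means after LPS were 0.03 ± 0.20 in IL-6 KO mice and -0.29 ± 0.15 in WT mice (SD, n = 7 each), a difference of 0.32 (95% interval 0.14 to 0.49, adjusted p = 0.264, limma). Those of Abcg2 were 0.05 ± 0.19 in IL-6 KO mice and -0.25 ± 0.17 in WT mice, a difference of 0.30 (95% interval 0.12 to 0.47, adjusted p = 0.283, limma). Counted from the highest difference of all 19935 genes, Slco1a4 stood at place 5, Abcb1a at 40, Slc16a1 at 50 and Abcg2 at 72. The exact permutation tests, two-sided and unadjusted, gave p = 0.00408 for Slco1a4, 0.00117 for Abcb1a, 0.00874 for Slc16a1 and 0.00758 for Abcg2. Slc2a1, Slc7a5 and Mfsd2a differed by 0.09, 0.09 and -0.04, with 95% intervals from -0.18 at the lowest to 0.23 at the highest. Calls appeared when an array was left out: Slco1a4 and Abcb1a without IL-6 KO LPS replicate 1 (0.64 and 0.35, adjusted p = 0.0187 and 0.0198, limma), and Abcb1a without WT LPS replicate 3 (0.36, adjusted p = 0.0436, limma).

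The genotype differences after LPS were also taken within blocks of array number; whether they depend on the block was not tested. For Slco1a4 the difference was 0.18 within arrays 1 to 11, 0.61 within arrays 12 to 22 and 0.45 with the 2 blocks as a term in the fit. For Abcb1a it was 0.19 within arrays 1 to 11, 0.40 within arrays 12 to 22 and 0.31 with the block term. For Slc16a1 these differences were 0.14, 0.35 and 0.23, and for Abcg2 they were 0.07, 0.38 and 0.26. Each estimate was higher in the later arrays, which hold 2 WT LPS arrays, than in the earlier, which hold 2 IL-6 KO LPS arrays. The 5 IL-6 KO LPS arrays of the later block had Slco1a4 values of -0.23 to 0.61, and the 2 of the earlier block -0.57 and -0.22. The WT LPS arrays lay between -0.70 and -0.33 in the earlier block and at -0.49 and -0.38 in the later one. The LPS effect on Slco1a4 was -1.43 in WT mice in each block, and in IL-6 KO mice -1.59 in the earlier block, with 1 saline array, and -0.89 in the later. Within the later block, with 1 WT saline array, the WT effect on Slco1a4 was not called (adjusted p = 0.0637, limma). The Abcb1a difference in IL-6 KO mice was -0.59 within arrays 1 to 11, with 1 saline array, and -0.24 within arrays 12 to 22, and with fewer arrays was called in neither (adjusted p = 0.112 and 0.194); with the block term it was -0.33 and called (adjusted p = 0.0158). The Mfsd2a difference in IL-6 KO mice was 0.22 within arrays 1 to 11 (adjusted p = 0.417), and that in WT mice 0.58 within arrays 12 to 22 (adjusted p = 0.171). What the array numbers stand for was not tested.

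**Figure D3:**
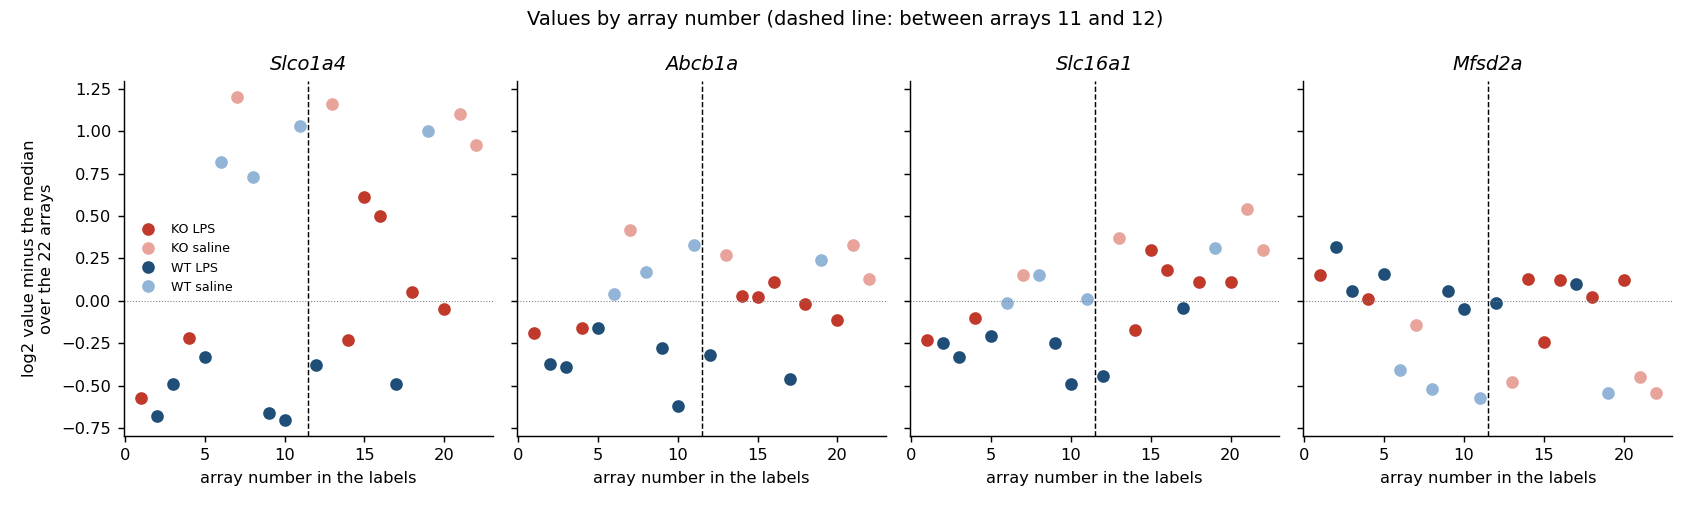
Log2 values, as differences from the median over the 22 arrays, of Slco1a4, Abcb1a, Slc16a1 and Mfsd2a against the array number in the titles, coloured by group; the dashed line lies between arrays 11 and 12. The IL-6 KO LPS values of Slco1a4 are -0.57 and -0.22 left of the line and -0.23 to 0.61 right of it.

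After saline, all 7 genes were slightly higher in IL-6 KO than in WT mice and none was called, nor was any at an unadjusted p under 0.05 in limma. Of all genes, 1 (0.00502%) was called and 5.17% had an unadjusted p under 0.05. Of the 19935 genes, 9739 were higher in IL-6 KO mice. All 7 genes were read on the same arrays, so their signs are not independent of each other. The largest differences were 0.23 for Slc16a1 (95% interval -0.00 to 0.45, adjusted p = 0.84, limma) and 0.20 for Slco1a4 (95% interval -0.15 to 0.55, adjusted p = 0.851, limma). The other 5 lay between 0.05 and 0.11. With the 2 blocks of array number as a term in the fit, the 7 differences lay between 0.04 for Abcg2 and 0.16 for Mfsd2a.

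Of 11 measured partner chains and close relatives of the 7 genes, 0 were called in either genotype. Of all genes, 1.34% were called in IL-6 KO mice and 1.8% in WT mice. At those shares, 0 of 11 does not show that these genes stayed unchanged. In WT mice 1 of the 11, Abcb1b, had an unadjusted p under 0.05 in limma, beside 6.42% of all genes. Abcb1b, the second P-glycoprotein gene of rodents, differed by 0.05 in IL-6 KO mice (95% interval -0.09 to 0.19) and by -0.15 in WT mice (95% interval -0.29 to -0.01, adjusted p = 0.715, limma). Abcb1a and Abcb1b are alike in sequence, and whether RNA of one bound probes of the other was not tested. Slc3a2, the heavy chain that LAT1 needs at the cell surface, differed by -0.02 in IL-6 KO and by 0.02 in WT mice. Bsg, the chaperone that takes MCT1 to the membrane, differed by -0.06 in IL-6 KO and by -0.04 in WT mice. The other 8, Slco1a1, Slco1a5, Slco1a6, Slc7a8, Slc16a3, Slc16a7, Slc2a3 and Mfsd2b, lay between -0.07 and 0.07 in both genotypes. Between the genotypes after LPS, 6 of the 11 were higher in IL-6 KO mice and 5 lower, and 0 were called. The highest difference was 0.17 for Abcb1b (adjusted p = 0.34, limma) and the lowest -0.18 for Slc3a2 (adjusted p = 0.434, limma). The SD of Slco1a1 was only 0.02 to 0.04 within groups, and without levels its signal over background is unknown.

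Among 35 other solute carriers of the barrier, 5 fell and 0 rose in IL-6 KO mice, and 5 fell and 0 rose in WT mice. Their median difference was -0.05 in IL-6 KO mice and -0.06 in WT mice. Of all genes, 0.256% fell and 1.08% rose in IL-6 KO mice, and 0.376% fell and 1.42% rose in WT mice. Slc40a1, the iron exporter ferroportin, fell by 0.78 in IL-6 KO mice (SE 0.12, adjusted p = 0.000269, limma) and by 0.93 in WT mice (SE 0.12, adjusted p = 1.63e-05, limma). Slco1c1, the thyroxine transporter, fell by 0.48 in IL-6 KO mice (adjusted p = 0.00535) and by 0.74 in WT mice (adjusted p = 1.97e-05). Slc6a6, the taurine carrier, fell by 0.37 in IL-6 KO and 0.40 in WT mice, and Slc35f2 by 0.36 in IL-6 KO and 0.30 in WT mice. Slc38a5, a glutamine carrier, was called in IL-6 KO mice (-0.29, against -0.21 in WT mice). Slco2b1 differed by -0.05 in IL-6 KO mice and was called in WT mice (-0.26). Of 13 other ABC transporters, 0 were called in IL-6 KO mice and Abca1, the cholesterol exporter, rose in WT mice by 0.26 (adjusted p = 0.00198, limma), against a difference of 0.17 in IL-6 KO mice (adjusted p = 0.108). Of 17 genes of receptor-mediated transport and transcytosis, 0 were called in IL-6 KO mice, where Tfrc, the transferrin receptor, differed by -0.41 (adjusted p = 0.183, limma). Cav1, the coat protein of caveolae, differed by -0.22 in IL-6 KO mice (adjusted p = 0.231) and fell by 0.33 in WT mice (adjusted p = 0.00869, limma).

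Of 15 junction genes, 2 fell in each genotype. The shares over all genes were 0.256% lower and 1.08% higher in IL-6 KO mice, and 0.376% lower and 1.42% higher in WT mice. Cldn5, the main claudin of brain endothelium, fell by 1.08 in IL-6 KO mice and by 1.14 in WT mice, and Ocln, occludin, by 0.26 in IL-6 KO and 0.36 in WT mice. Among 26 genes of Wnt signalling and of factors that induce the barrier, 4 fell in IL-6 KO mice, and 5 fell and 1 rose in WT mice, with a median of -0.11 in IL-6 KO and -0.07 in WT mice. Fzd6, a Wnt receptor, fell by 0.35 in IL-6 KO and 0.45 in WT mice, and Apcdd1, a Wnt-induced inhibitor of the pathway, by 0.31 in IL-6 KO and 0.41 in WT mice. The gene that rose in WT mice was Nfe2l2, the factor NRF2 of the oxidative stress response (0.34, adjusted p = 0.00142, limma), with a difference of 0.21 in IL-6 KO mice. Nr3c1, the glucocorticoid receptor, was called in IL-6 KO mice (-0.24, adjusted p = 0.019, limma) and differed by -0.20 in WT mice (adjusted p = 0.0691).

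Of 24 pan-endothelial markers, 7 fell and 1 rose in IL-6 KO mice, and 8 fell and 2 rose in WT mice. Over all genes, 0.256% fell and 1.08% rose in IL-6 KO mice, and 0.376% fell and 1.42% rose in WT mice. Tek, the angiopoietin receptor, fell by 0.65 in IL-6 KO and 0.74 in WT mice, and Kdr, the VEGF receptor, by 0.51 in IL-6 KO and 0.56 in WT mice. Ptprb, an endothelial phosphatase, fell by 0.52 in IL-6 KO and 0.54 in WT mice, and Egfl7, a secreted endothelial protein, by 0.48 in each. Pglyrp1 rose by 0.59 in IL-6 KO and 0.64 in WT mice. Robo4 differed by 0.22 in IL-6 KO mice and rose by 0.29 in WT mice. Sox17 is on this list and on that of barrier-inducing factors. Pecam1, the adhesion molecule of all endothelium, differed by -0.07 in IL-6 KO mice and fell by 0.22 in WT mice, while Cdh5, the cadherin of endothelial junctions, differed by 0.13 in IL-6 KO and 0.31 in WT mice and was not called. The mean over the list was -0.08 to 0.02 on IL-6 KO LPS arrays, against 0.06 to 0.15 on IL-6 KO saline arrays, and -0.07 to 0.01 on WT LPS arrays, against 0.00 to 0.17 on WT saline arrays. In bulk tissue, fewer endothelial cells and less RNA of these genes per cell cannot be told apart. Between the genotypes after LPS, 10 of the 24 markers were higher in IL-6 KO mice and 14 lower, and none was called. The median difference of the list was -0.02. Pecam1 was among the higher, with a difference of 0.23 (95% interval 0.14 to 0.33, unadjusted p = 5.22e-05, adjusted p = 0.0663, limma), as was Tek with 0.22 (adjusted p = 0.315). Among the lower were Cdh5 with -0.18 (adjusted p = 0.417, limma), Erg with -0.14 (adjusted p = 0.361) and Robo4 with -0.14 (adjusted p = 0.391). Cldn5 differed by 0.24 (adjusted p = 0.372) and Cav1 by 0.25 (adjusted p = 0.166). Of the 35 other solute carriers, 20 were higher in IL-6 KO mice after LPS and 15 lower, with Slco1c1 at 0.34 (adjusted p = 0.18, limma). Of the 26 genes of Wnt signalling and barrier-inducing factors, 12 were higher and 14 lower, with Fzd6 at 0.21 (adjusted p = 0.134, limma). The part of these genes in the transporter differences between genotypes was not tested.

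**Figure D4:**
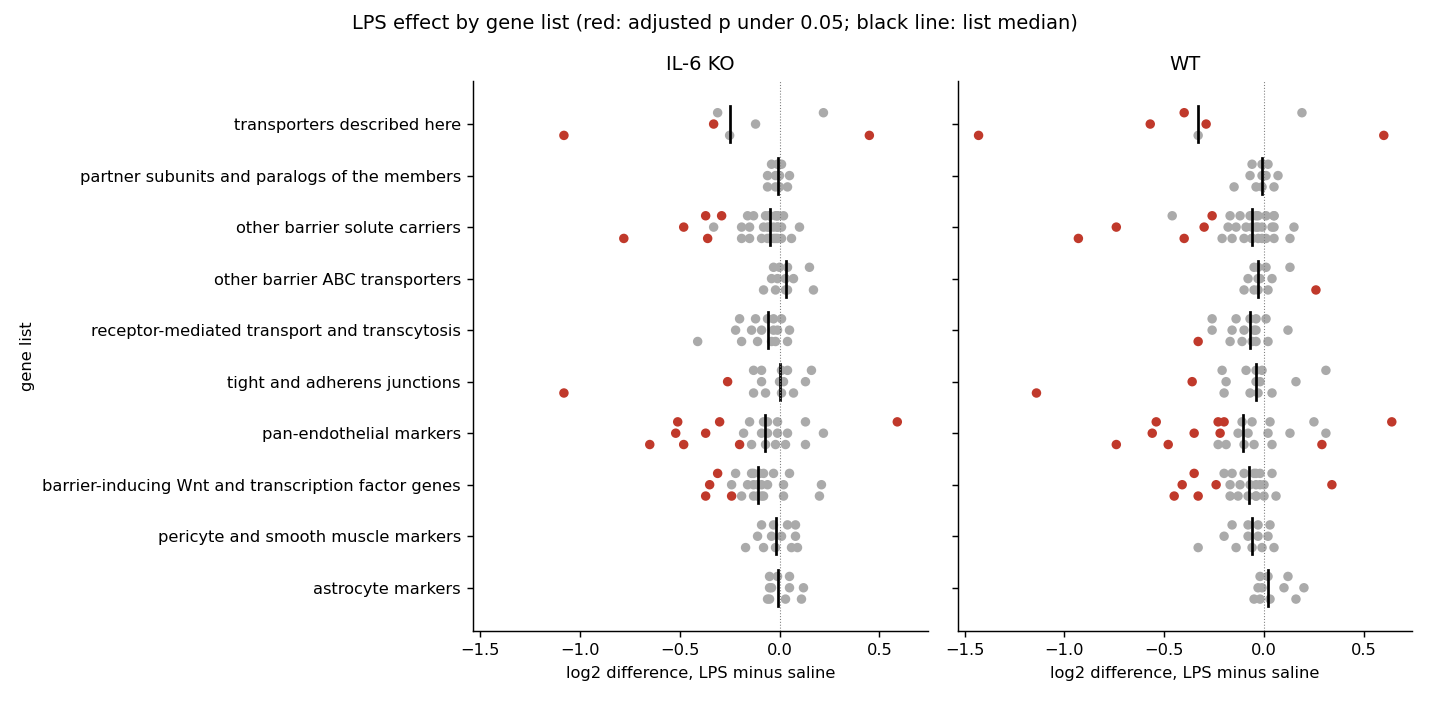
Log2 difference of LPS minus saline for every gene of the 7 transporters and 9 related lists in IL-6 KO mice (left) and WT mice (right); red points have an adjusted p under 0.05 and black lines are list medians. The transporter median lies at -0.25 in IL-6 KO and at -0.33 in WT mice, and the other 9 drawn lie nearer to 0; the endothelial activation list is not drawn and has a median of 1.19 in IL-6 KO and 1.20 in WT mice.

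Markers of other cells were read on the same arrays. Of 13 pericyte and smooth muscle, 11 astrocyte, 9 oligodendrocyte, 10 neuron, 12 choroid plexus, 7 pituitary and 6 blood cell markers, 0 were called with LPS in either genotype. Of all genes, 1.34% were called in IL-6 KO mice and 1.8% in WT mice, so lists this short would hold few calls. All 12 choroid plexus markers were lower after LPS in WT mice, with a median of -0.11. In IL-6 KO mice 8 of them were higher and 4 lower. The mean over this list was 0.82 on WT saline replicate 1, where Ttr lay at 4.62. It was 0.06, 0.065 and -0.064 on WT saline replicates 2, 3 and 4. The WT saline group enters both the LPS comparison in WT mice and the genotype comparison after saline. Of 11 microglia markers, 0 were called in IL-6 KO mice, where Cx3cr1 differed by -0.25 and Sall1 by -0.13, and Cx3cr1 (-0.46) and Sall1 (-0.34) fell in WT mice. After LPS, the mean over the microglia list was -0.06 to 0.07 on IL-6 KO arrays and -0.13 to -0.05 on WT arrays, with 10 of the 11 markers higher in IL-6 KO mice; Cx3cr1 differed by 0.31 (unadjusted p = 0.000213, adjusted p = 0.143, limma). The oligodendrocyte mean was -0.20 to 0.38 on IL-6 KO arrays and -0.36 to 0.09 on WT arrays, with 8 of the 9 markers higher in IL-6 KO mice. Of all 19935 genes, 9638 were higher in IL-6 KO mice after LPS. After saline, 8 of the 9 oligodendrocyte markers were also higher, with a median difference of 0.17, against 0.15 after LPS. Of the 11 microglia markers, 7 were higher after saline. All 12 choroid plexus markers were lower in IL-6 KO mice after saline, with a median of -0.16, and 7 of them after LPS. The part of these cells in the transporter differences was not tested.

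The 7 genes were also compared with each other and with all genes by Pearson's r over the 22 arrays, a description in which both genes of a pair come from the same array. With each group's mean removed, 17 of the 21 pairs lay above 0, with a median of 0.17. No r over all pairs of genes was taken as a background, and the blocks of array number were not removed. The 2 efflux pumps, Abcb1a and Abcg2, were most alike (r = 0.83), followed by Slco1a4 and Abcg2 (0.72) and Abcg2 and Slc16a1 (0.64). Slc2a1 and Mfsd2a formed another pair (0.55). With group means kept, r also holds the LPS effects given above. Slco1a4 and Abcb1a then reached 0.92, and Mfsd2a stood against Slco1a4 at -0.84. With group means removed these 2 pairs had 0.6 and -0.31.

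**Figure D5:**
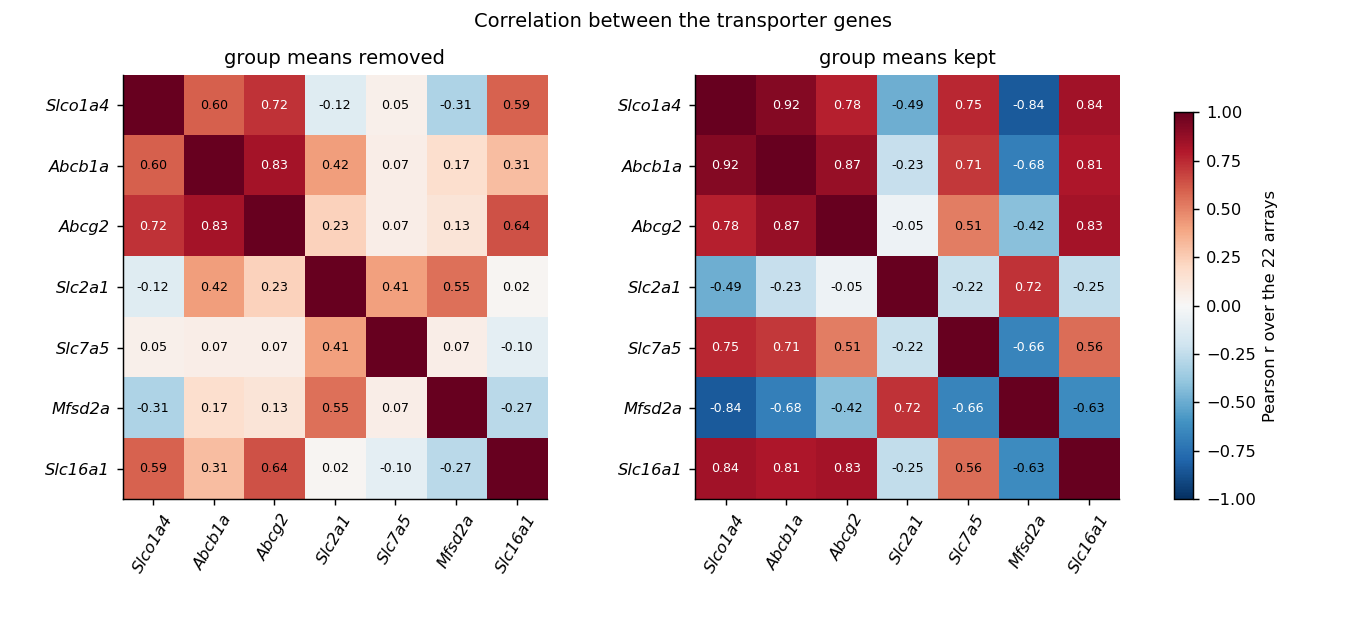
Pearson's r between the 7 genes over the 22 arrays, with group means removed (left) and kept (right); red is positive and blue negative. Slco1a4, Abcb1a, Abcg2 and Slc16a1 have r from 0.31 to 0.83 among themselves on the left.

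Over all genes with group means removed, the patterns most like Slco1a4 were those of Trim59 (r = 0.889), Myo6 (0.882) and Slco1c1 (0.872). Closest to Abcb1a were Eogt (0.842), Abcg2 (0.834) and Zbtb10 (0.793), and closest to Abcg2 were Tmem135 (0.885), Septin2 (0.862) and Nbas (0.862). Slc2a1 was most like Slc35e1 (0.79), Ppdpf (0.776) and Wars (0.748). Slc7a5 was most like Chpf (0.855), Plod3 (0.8) and Ctu2 (0.797), and Slc16a1 most like Rhoa (0.909), Ufc1 (0.908) and Vamp3 (0.899). Nearest to Mfsd2a were Zbtb16 (0.8), Cyb561a3 (0.756) and Khdc4 (0.742). With group means kept, and with them the LPS effects, the nearest genes to Slco1a4 were Slco1c1 (0.975), Tek (0.957) and Trim59 (0.946). Those nearest to Abcb1a were Fzd6 (0.953), Slco1a4 (0.925) and Tek (0.908). For Mfsd2a they were Fkbp5 (0.951), Zbtb16 (0.94) and Rtp4 (0.933), for Slc16a1 Itm2a (0.912), Ecm2 (0.893) and Cx3cr1 (0.883), and for Slc7a5 Adgre5 (0.882), Nkx6-2 (0.878) and Apcdd1 (0.86).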

How the data were processed

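The deposited log2 values cover 28815 probe sets in 22 array columns and were made by the authors with RMA (background correction, quantile normalization and probe summary), whose version was not given, per the submitters' processing notes. Per probe set, the median over all columns was 0 within 7.02e-07, so the deposited values are differences from the median array; no source states the base of the logarithm, which was taken as 2. Array medians lay between -0.013 and 0.029, no arrays were identical, and the highest correlation between 2 arrays was 0.627. Arrays have no read depth; their number limits the precision. The array's genome build is not given in the sources used here.

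Probe sets with 1 symbol (21780, of which 21689 matched by gene ID to RefSeq's GRCm38.p6 table) were averaged per gene, which joined probe sets for 998 genes. Another 1605 with several symbols and 5430 with none were left out, which gave 19935 genes. Arrays were grouped by the labels. limma 3.58.1 in R 4.3.3 fitted 1 mean per group over all 22 arrays with empirical Bayes moderation, and 5 contrasts were tested two-sided with Benjamini-Hochberg adjustment over all genes. The fit was tested on simulated data. Exact permutation tests used the arrays of the groups compared. For the difference of LPS effects, genotype labels were permuted within each treatment. The members, the 17 other gene lists and the motifs were chosen with earlier results of these data known. The text names all 7 members, called members of each list with the largest changes, up to 4 per direction, or else the smallest p, partner genes, and the 3 genes most alike to each member; other list genes, among them Pecam1, Cdh5, Slco2b1, Slc38a5, Icam1, Vcam1, Ccl2 and Sele, were named after their values were seen, and Sox17 and Fli1 are selected but given no values of their own. For marker lists of other cells with no call, the gene with the smallest p was left out for length.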

Additional observations from a re-analysis of the deposited data

Results flagged for a closer look

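In 28 sets of values, 7 genes in 4 groups, the gap between an extreme array and its nearest neighbour was set against the group's range with Dixon's 95% critical value; chance passes about 1 set in 20, and 3 passed. Abcg2 was -0.59 on WT LPS replicate 5, the lowest of its group, an array on which Ttr lay at 2.80. Slc2a1 was 0.34 on IL-6 KO LPS replicate 3, the highest of its group, an array on which Gh lay at 3.76. Mfsd2a was -0.24 on IL-6 KO LPS replicate 4, the lowest of its group, an array on which Ttr lay at 1.98. That is just under the limit of 2, so the fit without arrays with Ttr or Gh over 2 keeps this array. The same array had the highest Slco1a4 and Slc16a1 values of that group, 0.61 and 0.30.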

How the results depend on the processing

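Up to 36 alternative fits were run per result. The falls of Slco1a4 in IL-6 KO mice and of Abcb1a in WT mice stayed called in all of them (-1.59 to -0.89 and -0.72 to -0.52). Of the 7 genes, 3 were called for LPS in IL-6 KO mice. The fit within arrays 1 to 11 holds 1 IL-6 KO saline array, so no count is given for it. Within arrays 12 to 22 the count was 2, and 166 of all genes were called there, against 267. It was 2 when values were quantile-normalized again and 2 without the arrays with Ttr or Gh over 2. With the array block or array number as a term it was 4, where Slc7a5 was called too. With 1 array left out, 2 to 4 of the 7 genes were called. In WT mice 5 were called, against 1 within arrays 12 to 22 (45 genes in all, against 359), where Slco1a4 had an adjusted p of 0.0637, 3 without variance moderation, 3 without the arrays with Ttr or Gh over 2, an alternative added after the data were seen, 6 among the genes with the larger spread, where Abcg2 had an adjusted p of 0.038, and 3 to 5 when 1 array was left out (3 without WT saline replicate 2 or WT LPS replicate 6). Fewer arrays enter within a block. Between the genotypes after LPS 0 were called, against 1 when values were quantile-normalized again, 4 with array quality weights (all 4 higher in IL-6 KO), 2 among the genes with a spread above the median gene, and 0 to 2 when 1 array was left out (2 without IL-6 KO LPS replicate 1, 1 without WT LPS replicate 3); the cause was not tested. Over all genes that comparison called 614 genes with array quality weights, 16 when quantile-normalized again or among the genes with the larger spread, 2 with the array block, 0 within either block, 1 with only the groups compared, without moderation or without the arrays with Ttr or Gh over 2, and 2 to 47 with 1 array left out (47 without IL-6 KO LPS replicate 1, 2 without IL-6 KO LPS replicate 6), against 8. After saline the count over all genes was 0 to 3, against 1. For LPS in IL-6 KO mice, Abcg2 was 0.0012 within arrays 12 to 22. For IL-6 KO against WT after LPS, Mfsd2a was 0.0023 with the array block and -0.0657 to 0.004 with 1 array left out. For IL-6 KO against WT after saline, Slc7a5 was -0.0253 with array weights and -0.0031 to 0.1188 with 1 array left out. The difference of LPS effects within arrays 1 to 11 was -0.1593 for Slco1a4, -0.0463 for Abcb1a, -0.1134 for Abcg2, -0.1069 for Slc2a1 and -0.0665 for Slc7a5; for Slc2a1 it was -0.0016 with array weights. With 1 array left out it was -0.0363 to 0.074 for Slc2a1 and -0.0311 to 0.0908 for Slc7a5. Leaving out arrays by the mean of pituitary or choroid markers over 1.5 was not run, since no array reached it, and restricting the fit to the groups compared gives no value for the difference of LPS effects. No paired analysis was possible because the array numbers are unique to each array. Without a level per probe set, signal over background is unknown.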

Other observations

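Of 13 genes listed as endothelial activation, 7 rose and 0 fell in IL-6 KO mice, and 9 rose and 0 fell in WT mice. Of all genes, 1.08% rose and 0.256% fell in IL-6 KO mice, and 1.42% rose and 0.376% fell in WT mice. The median difference of the list was 1.19 in IL-6 KO and 1.20 in WT mice. In bulk tissue, the cells in which these genes changed are unknown. Cxcl10, an interferon-induced chemokine, rose by 4.41 in IL-6 KO mice (SE 0.19, adjusted p = 9.02e-14, limma) and by 4.88 in WT mice (SE 0.19, adjusted p = 1.89e-14, limma). Lcn2, which encodes the iron-carrier binding protein lipocalin 2, rose by 2.31 in IL-6 KO mice (adjusted p = 4.37e-08, limma) and by 3.39 in WT mice (adjusted p = 4.09e-11, limma). It was the 1 gene of this list called between the genotypes after LPS, lower in IL-6 KO mice by 1.04 (difference -1.04, SE 0.17, adjusted p = 0.0164, limma). Ptgs2, the inducible cyclooxygenase of prostaglandin synthesis, rose by 1.35 in IL-6 KO and 1.55 in WT mice. Nfkbia, the inhibitor of NF-kB that NF-kB itself induces, rose by 1.35 in IL-6 KO and 1.36 in WT mice. The adhesion molecules Icam1 and Vcam1 were higher after LPS by 1.25 and 1.31 in IL-6 KO mice and by 1.20 and 1.11 in WT mice, with adjusted p from 5.97e-08 to 8.57e-07 in limma. The chemokine gene Ccl2 differed by 1.19 in IL-6 KO mice (adjusted p = 0.101) and rose by 1.30 in WT mice (adjusted p = 0.042, limma). Sele, the adhesion molecule E-selectin, differed by 0.33 in IL-6 KO mice (adjusted p = 0.0836) and rose by 0.50 in WT mice (adjusted p = 0.00142, limma). Of 11 markers of ependymal cells and tanycytes, the glia that line the third ventricle, 0 were called in IL-6 KO mice and Vcan, a matrix proteoglycan, rose by 0.22 in WT mice (adjusted p = 0.0463, limma); in IL-6 KO mice it differed by 0.19 (adjusted p = 0.135).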
